A study of Mus musculus with 16 samples.

Results

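Svet1 and Unc5d are 2 of the 55359 genes counted in total RNA of mouse fetal cortex at gestational day 16, and they were chosen together because the annotation places Svet1 inside an intron of Unc5d. They were chosen by their measured CPM and their ratio across exposure groups in all 16 libraries, so every exposure difference of Svet1, of Unc5d and of the ratio is a description without a test. The libraries form 8 groups of 2, each a combination of fetal sex and parental treatment: Control, Paternal EtOH (ethanol-exposed father), Maternal EtOH (ethanol-exposed mother) and Dual EtOH (both parents exposed). The labels name no strain, ethanol dose, exposure window or parental age, and do not tell whether replicates are separate animals, litters or pools. The p-values thus rest on a spread between libraries that may be technical.

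Unc5d encodes a member of the UNC5 family, single-pass receptors for netrins that mediate repulsion of migrating neurons and growth cones, often together with DCC. UNC5D also binds FLRT2 and FLRT3, and in the developing cortex it is known from multipolar cells of the subventricular zone and from upper-layer neurons. Svet1 was described as a transcript of the subventricular zone and upper layers, and is used as a marker of those cells. It is nuclear and comes from the unspliced Unc5d transcript, so its reads are intron reads of the host gene.

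In GENCODE M21 (GRCm38) Unc5d lies on the minus strand of chromosome 8 and spans 572.9 kb, with 18 exons that add up to 9220 bases. Its first intron is 327.7 kb long. Svet1 is a single-exon model of 3940 bases in that intron, on the same strand, starting 106.9 kb from the Unc5d start. A further pair of single-exon models lies in the same intron and orientation, Gm45652 (3831 bases, 127.7 kb from the start) and Gm9911 (2802 bases, 132.2 kb from the start). The class of all 3 is TEC, which GENCODE uses for models that await experimental evidence.

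**Figure D1:**
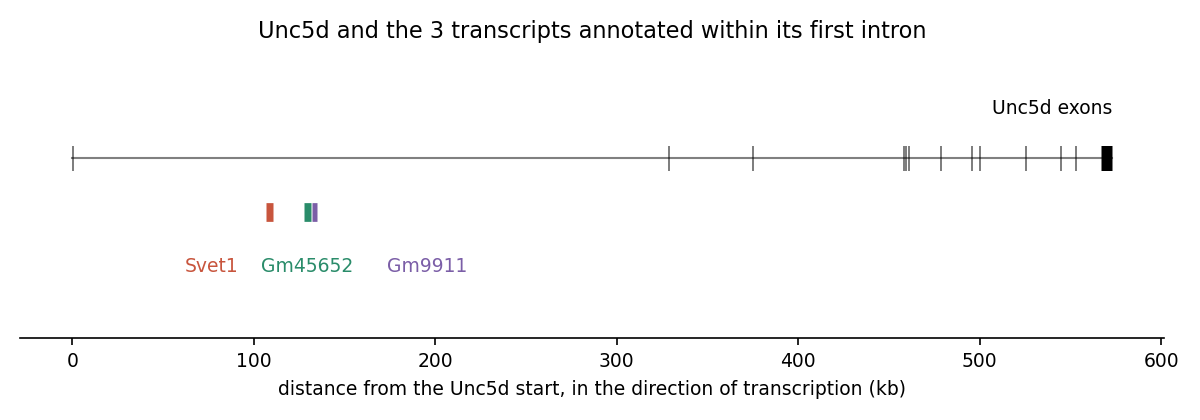
Map of Unc5d drawn in the direction of transcription, with distance from its start in kb. Black bars are the 18 exons of Unc5d and coloured bars are the 3 intronic models, which all sit in the first intron and start between 106.9 and 132.2 kb from the Unc5d start.

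The ends of Gm45652 and Gm9911 are shown because these are the transcripts of the intron whose own counts the choice of genes did not use. The sequences are those of GENCODE M21 (GRCm38), written 5′ to 3′ on the strand of the transcript and in lower case throughout, since no motif is marked. They cover chr8:29088073-29088132 for Gm45652 and chr8:29084685-29084744 for Gm9911, both on the minus strand.
Gm45652, last 60 bases: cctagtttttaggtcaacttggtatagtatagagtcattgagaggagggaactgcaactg
Gm9911, last 60 bases: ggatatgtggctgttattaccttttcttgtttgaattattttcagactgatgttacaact
Of these last 60 bases 28.3% are A in Gm45652 and 21.7% in Gm9911, and the GC content of the whole models is 39.4% and 39.2%. Neither model holds a tandem repeat of at least 20 bases with units of 1 to 4 bases.

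Libraries differed in depth and in composition. Total counts were 15336566 to 19966696 for males and 26134287 to 35218456 for females, which means that depth and sex cannot be told apart. Among females, the dual libraries had 28491639 and 26134287 counts and the others 32769462 to 35218456, so depth also goes with the female dual group. The 9 cortical markers examined, among them Tbr1, Emx1 and Eomes, were counted in every library, with a summed level of 2137 to 2658 CPM (counts relative to library size, scaled by edgeR's TMM method). Female dual libraries devoted 0.872% and 0.86% of their counts to TEC and sense-intronic genes, where the remaining 14 lay at 0.28% to 0.534%. Their Malat1 levels, a nuclear RNA, were 5672 and 5847 CPM, and those of the 14 others 2704 to 5042 CPM.

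Unc5d was counted well, with 1629 to 5225 counts per library, and its level was similar in all groups. It was at 130 and 130 CPM in male controls and at 129 and 109 CPM in female controls. With paternal exposure it stood at 121 and 144 CPM in males and at 143 and 139 CPM in females. With maternal exposure the values were 114 and 137 CPM in males and 124 and 132 CPM in females. The male dual libraries held 139 and 145 CPM, and the female dual libraries 126 and 118 CPM. Ordered by mean, the groups ran from male dual (142 CPM) to female control (119 CPM), and each overlapped the next in that order.

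As fitted with edgeR, the log2 fold change of Unc5d against control was 0.14 ± 0.07 (SE) for paternal, 0.03 ± 0.07 for maternal and 0.08 ± 0.07 for dual exposure, each averaged over the sexes with 4 libraries per exposure. In females alone the dual difference of Unc5d was 0.03 ± 0.10, and in males alone 0.13 ± 0.10. The 3 averaged differences share the same 4 control libraries, and each single-sex difference uses 2 of those.

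Svet1 was a low-count transcript and set the female dual group apart. Its counts were 40 to 141 in the 14 other libraries, and 656 and 389 in the female dual libraries. Scaled to CPM, Svet1 was at 21.4 and 13.9 in female dual fetuses and at 4.13 and 3.59 in female controls, with no overlap and a 4.56-fold higher mean.

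The remaining female groups lay at the level of their controls. Svet1 was at 3.79 and 4.19 CPM with paternal exposure and at 4.12 and 3.77 CPM with maternal exposure. In males Svet1 varied more from library to library. It was at 5.04 and 7.48 CPM in controls, 2.98 and 4.85 with paternal exposure, 3.29 and 4.30 with maternal exposure, and 8.76 and 4.90 with dual exposure. The male dual and male control libraries overlapped, and the mean of the former was 1.09 times that of the latter.

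By mean, the order of groups for Svet1 was female dual (17.6 CPM), male dual (6.83 CPM) and male control (6.26 CPM), followed by 5 groups between 3.79 and 3.99 CPM that overlapped one another in sequence. Female dual did not overlap male dual, and male control did not overlap the next group, female paternal. Averaged over both sexes, Svet1 was at 5.06 ± 1.72 CPM in controls, 3.95 ± 0.782 with paternal, 3.87 ± 0.442 with maternal and 12.2 ± 7.11 with dual exposure (mean ± SD, n = 4). The dual mean combines 2 female libraries at 21.4 and 13.9 CPM with 2 male ones at 8.76 and 4.90 CPM.

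The fitted log2 fold change of Svet1 was 1.17 ± 0.20 (SE) for dual, −0.30 ± 0.21 for paternal and −0.34 ± 0.21 for maternal exposure. Dual exposure gave 2.19 ± 0.28 in females and 0.14 ± 0.30 in males. The female dual effect of Svet1 exceeded the male one by 2.05 ± 0.40, and that of Unc5d by −0.10 ± 0.14. In bulk tissue, fewer cells of a type and less RNA per cell cannot be told apart, and the same holds for more cells and more RNA.

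**Figure D2:**
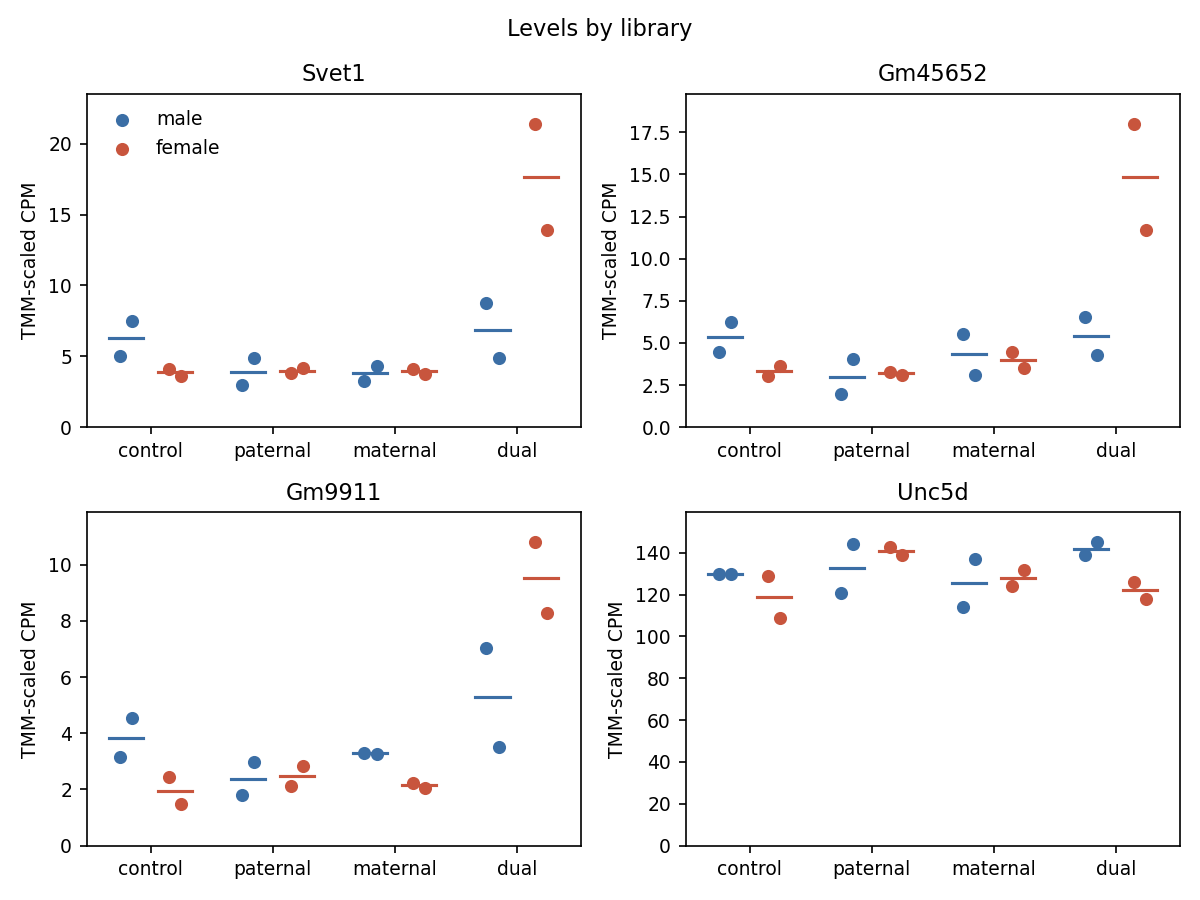
TMM-scaled CPM (vertical axes, starting at 0) of Svet1, Gm45652, Gm9911 and Unc5d by exposure, with 1 point per library, blue for males and red for females, and a bar at the mean of 2 libraries. The 3 intronic transcripts are highest in the female dual libraries (Svet1 at 21.4 and 13.9 CPM), while Unc5d lies between 109 and 145 CPM throughout.

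The ratio of Svet1 to Unc5d needs no scaling between libraries, since both genes are counted in the same one. Intervals given with it are exact 95% intervals (Clopper-Pearson) and cover counting error only. Per 100 Unc5d counts, the female dual libraries held 16.9 (15.5 to 18.4) and 11.8 (10.6 to 13.1) Svet1 counts. Female controls held 3.21 (2.69 to 3.80) and 3.29 (2.73 to 3.93). Both female dual libraries lay above every other library, and their intervals did not overlap each other.

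Female paternal libraries held 2.64 (2.21 to 3.13) and 3.02 (2.54 to 3.57) Svet1 counts per 100 Unc5d counts, and female maternal libraries 3.33 (2.79 to 3.94) and 2.85 (2.37 to 3.39). These 4 and the 2 female control libraries had overlapping intervals. Among males, the ratio was 3.89 (3.17 to 4.73) and 5.77 (4.80 to 6.89) in controls and 6.30 (5.26 to 7.49) and 3.37 (2.58 to 4.32) with dual exposure. Male paternal libraries held 2.46 (1.75 to 3.36) and 3.36 (2.68 to 4.16), and male maternal libraries 2.88 (2.16 to 3.78) and 3.13 (2.44 to 3.95). Male control and male dual each had 1 library whose interval lay above those of all 4 male paternal and maternal libraries.

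On the log2 scale the ratio was higher by 1.04 with dual exposure over both sexes, by 2.12 in females (4.35-fold), and differed by −0.04 in males. Its differences from control were −0.46 with paternal and −0.37 with maternal exposure. The pooled SD of the log2 ratio between libraries of 1 group was 0.33. Leaving out either library of male control or male dual moved the male difference between −0.49 and 0.41, and in females the same procedure gave 1.86 to 2.38.

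**Figure D3:**
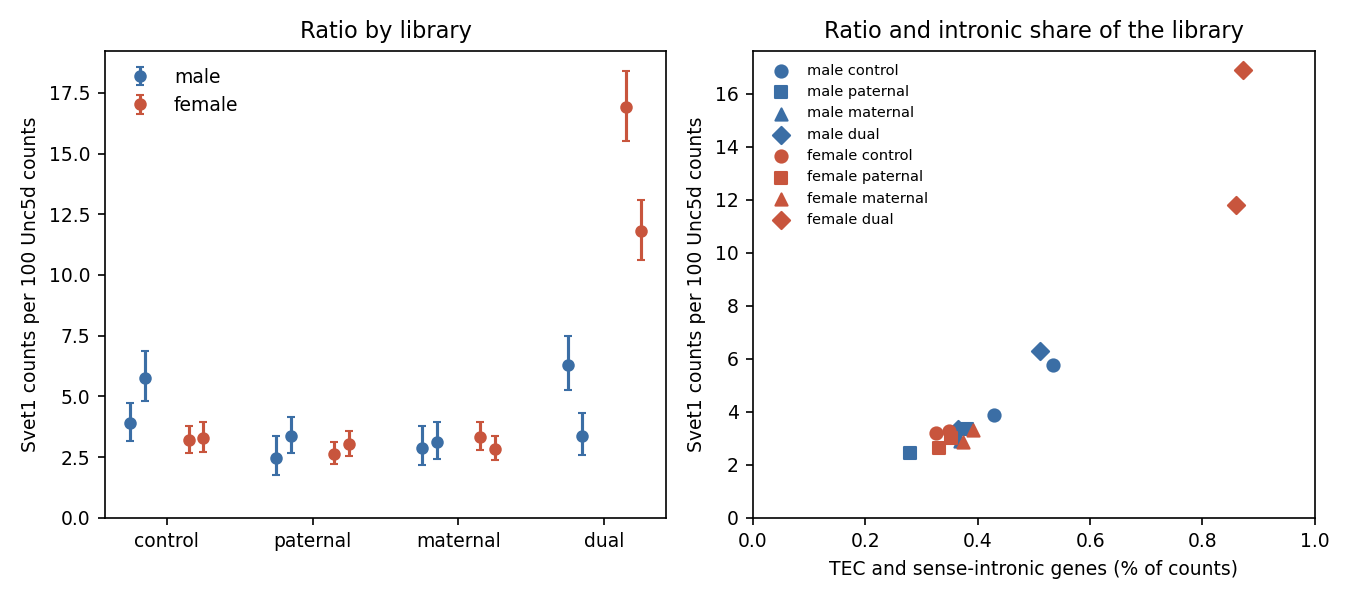
Left, Svet1 counts per 100 Unc5d counts by exposure, with 1 point per library (blue male, red female) and its exact 95% interval. Right, the same ratio against the percentage of the library's counts on TEC and sense-intronic genes; the female dual libraries are at the top right (16.9 and 11.8, with 0.872% and 0.86%), followed by male dual replicate 1 and male control replicate 2.

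Libraries with a high ratio also had a high intronic share. Outside the female dual group the highest ratios were 6.30 in male dual replicate 1 and 5.77 in male control replicate 2, and these libraries also had the highest TEC and sense-intronic shares outside that group, 0.511% and 0.534%. The lowest ratio, 2.46 in male paternal replicate 1, came with the lowest share, 0.28%. The part of this library-wide composition in the Svet1 level was not tested.

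Per kilobase of exon, Unc5d was at 11.8 to 15.8 CPM per kb in the 16 libraries. Svet1 per kilobase was 5.75% to 14.7% of Unc5d per kilobase in the 14 libraries outside the female dual group, and 39.6% and 27.6% in the female dual libraries. Pooling the 3 intronic models gave 4.82% to 14% and, in the female dual libraries, 34.7% and 25.1%. In every library these 3 models were covered at a lower depth than the Unc5d exons.

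The sexes were compared by a test, since the choice of genes went by exposure and not by sex. That test used the same library values as the choice, the female dual ones included, so it is not fully independent of it. Over all 16 libraries the male minus female difference of Svet1 was −0.18 ± 0.15 (adjusted p = 0.691, edgeR) and that of Unc5d was 0.06 ± 0.05 (adjusted p = 0.705, edgeR), and neither passed the threshold of 0.05. Of all genes tested, 0.877% passed in this comparison, 0.404% with higher and 0.473% with lower values in males. Without the 4 dual libraries the Svet1 difference was 0.21 (adjusted p = 0.655, edgeR), of the opposite sign. The log2 ratio of Svet1 to Unc5d differed by −0.27 between males and females (exact permutation test within exposures, two-sided, 1296 splits, p = 0.373), and by 0.18 without the dual libraries (216 splits, exact permutation p = 0.287).

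Gm45652 and Gm9911, the other models of the first Unc5d intron, followed Svet1 in the female dual group. Gm45652 was at 18.0 and 11.7 CPM in female dual and at 3.05 and 3.62 CPM in female control libraries. Gm9911 was at 10.8 and 8.27 CPM in female dual and at 2.44 and 1.48 CPM in female control libraries. For neither transcript did these groups overlap.

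Both rose with dual exposure in females, Gm45652 by a log2 fold change of 2.15 ± 0.31 (adjusted p = 0.000326, edgeR) and Gm9911 by 2.29 ± 0.33 (adjusted p = 0.000283, edgeR). In that comparison 15.0% of all genes tested passed, 9.34% with higher and 5.64% with lower values, so passing the test does not set these transcripts apart. They come from the libraries in which Svet1 was chosen and ran with it over those 16 libraries (r = 0.92 for Gm45652 and 0.93 for Gm9911). None of their exposure tests, here or below, is independent support for the Svet1 difference.

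In males the dual difference of Gm45652 was 0.02 ± 0.33 (adjusted p = 0.997, edgeR) and that of Gm9911 was 0.48 ± 0.34 (adjusted p = 0.942, edgeR). No gene (0.0%) passed edgeR's test in that comparison, while 1048 had an unadjusted p under 0.05 and DESeq2 called 1. The Gm45652 libraries were 4.47 and 6.27 CPM in male control and 6.52 and 4.29 CPM in male dual, which overlapped. Gm9911 was at 3.14 and 4.55 CPM in male control and at 7.04 and 3.52 CPM in male dual, again overlapping.

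The female dual effect exceeded the male one by 2.13 ± 0.46 for Gm45652 (adjusted p = 0.0212, edgeR) and by 1.81 ± 0.47 for Gm9911 (adjusted p = 0.0423, edgeR). In that comparison 3.5% of all genes passed, 2.76% with a higher effect in females and 0.733% with a lower one. Of 1401 other intronic transcripts, described below, 306 (21.8%) passed with a higher effect in females and 0 with a lower one. Passing thus does not set Gm45652 and Gm9911 apart from transcripts of their kind. The Gm45652 call was lost on leaving out male control replicate 2 (adjusted p = 0.15, edgeR), male dual replicate 2 (0.124) or female dual replicate 1 (0.0699). The Gm9911 call was lost without male control replicate 2 (adjusted p = 0.241, edgeR), male dual replicate 2 (0.186), female dual replicate 1 (0.11) or female dual replicate 2 (0.0805), and with the replicate number as a block (0.0579).

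Averaged over the sexes, dual exposure gave 1.09 ± 0.23 for Gm45652 (adjusted p = 0.0142, edgeR) and 1.38 ± 0.23 for Gm9911 (adjusted p = 0.0042, edgeR), where 3.36% of all genes passed, 2.72% with higher values and 0.641% with lower ones. With counts scaled on protein-coding genes alone, the calls over all genes split into 734 higher and 60 lower, against 586 and 138 as reported. The call of Gm45652 was lost without male control replicate 1 (adjusted p = 0.109, edgeR), male dual replicate 1 (0.125) or female dual replicate 1 (0.0699). No gene passed (0.0%) with paternal or maternal exposure by edgeR, where 1821 and 817 genes had an unadjusted p under 0.05 and DESeq2 called 22 and 2. There, the differences of Gm45652 were −0.43 (adjusted p = 0.649, edgeR) and −0.02 (0.999), and those of Gm9911 −0.15 (0.901) and −0.04 (0.998).

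Within the intron the 3 transcripts kept similar proportions. Svet1 made up 38.0% to 44.4% of their summed counts in 15 libraries, 42.6% and 41.0% in the female dual ones among them. The remaining library, male maternal replicate 1, had 27.1%, with 54 Svet1, 91 Gm45652 and 54 Gm9911 counts.

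Unc5d is isolated in its region. The nearest protein-coding genes past its 3′ end are Gm45861, Poteg and Chrna6, at 1025.8 to 1232.8 kb, with at most 2 counts in any library. Before its 5′ end lie Dusp26, a phosphatase gene, and Rnf122 and Tti2, at 1869.8 to 1930.7 kb. In females with dual exposure Dusp26 differed by −0.11 ± 0.18 (adjusted p = 0.713, edgeR), Rnf122 by −0.13 ± 0.11 (0.479) and Tti2 by 0.02 ± 0.10 (0.906), so none of the 3 passed.

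The Svet1 and Unc5d pair was set beside 1401 other tested transcripts that lie in an intron of a tested protein-coding host on the same strand, of class TEC (1190), sense-intronic (208) or lincRNA (3), in 800 hosts. With dual exposure in females 813 of these transcripts (58.0%) rose and 1 fell, while 58 hosts rose and 40 fell, beside 9.34% of all genes that rose and 5.64% that fell. The counts of hosts are thus no higher than those shares. The median difference between transcript and host was 1.55 on the log2 scale, with quartiles of 1.16 and 1.94. Svet1 minus Unc5d came to 2.15, and 216 pairs (15.4%) were above it. The direction of the Svet1 difference was that of most such pairs, with a size in the upper part of their range. The low-count filter could be met by as few as 2 libraries. A transcript could thus enter this set through the female dual libraries alone, so the count that rose is no test of the set. The same limit applies to the values over both sexes, to the female minus male dual effect given above and to the summed counts below. Of 391 pairs with a mean of at least 50 counts for transcript and host, 357 transcripts (91.3%) rose and 1 fell. Their median difference was 1.62, and that mean includes the female dual libraries.

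Over both sexes 288 of the 1401 transcripts (20.6%) rose and 0 fell with dual exposure, beside 2.72% of all genes that rose and 0.641% that fell. Svet1 minus Unc5d was 1.08 against a median of 0.77, with 297 pairs (21.2%) above it. In males 0 transcripts passed in either direction, the median difference was −0.01, and Svet1 minus Unc5d was 0.01. For paternal exposure the pair stood at −0.44 against a median of −0.31, and for maternal exposure at −0.37 against −0.13.

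**Figure D4:**
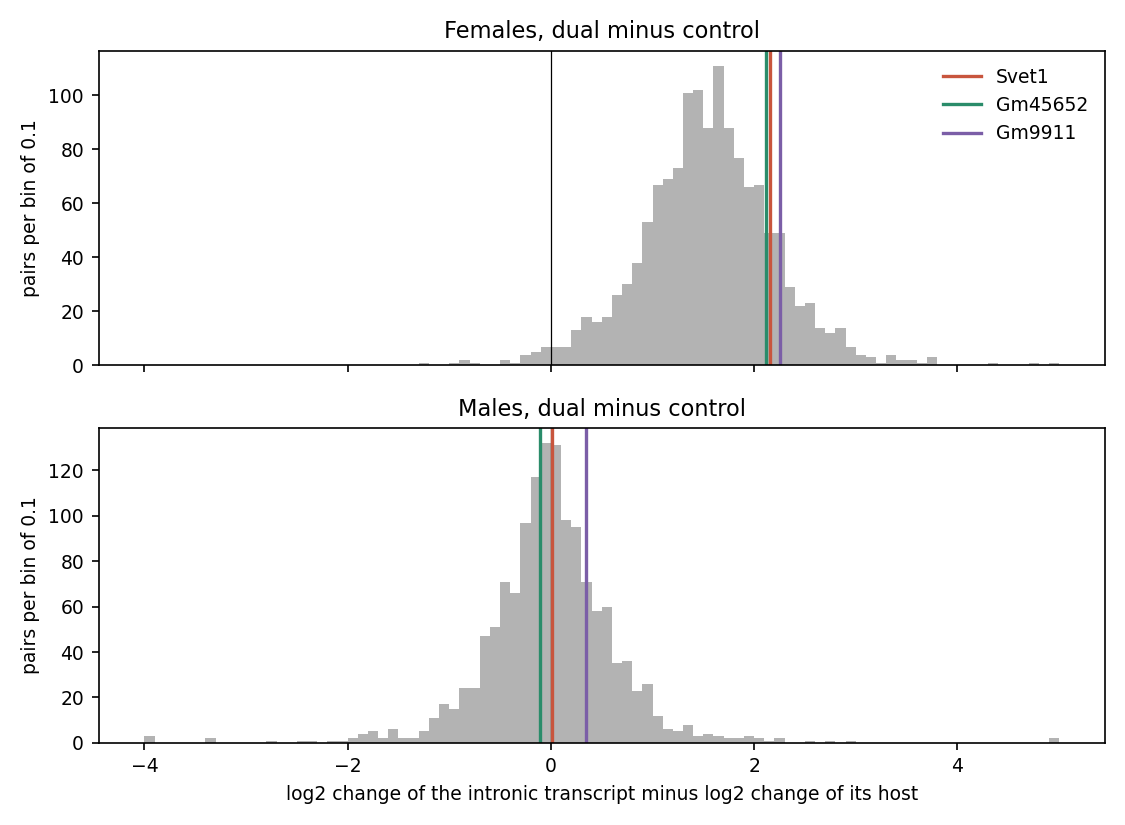
Histograms of the log2 change of an intronic transcript minus that of its host over 1401 pairs (grey, pairs per bin), for dual minus control in females (top) and males (bottom), with lines for the 3 transcripts of Unc5d; values beyond the axis are drawn in the end bins. In females the pairs centre on 1.55 and Svet1 is at 2.15, and in males they centre on −0.01 with Svet1 at 0.01.

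The summed counts of these other intronic transcripts per 100 counts of their hosts were 5.80 and 5.63 in the female dual libraries and 2.02 to 3.64 in the other 14. The highest values outside the female dual group were 3.64 in male control replicate 2 and 3.39 in male dual replicate 1, the libraries with the highest Svet1 ratios outside it. Not every intronic transcript was higher. Among the 4 most abundant, Gm42992 in Auts2 rose by 2.15 in females (adjusted p = 3.00e-06, edgeR) and Peg13, an imprinted transcript in Trappc9, fell by 0.22 (adjusted p = 0.0338, edgeR). The Peg13 call was lost with scaling on protein-coding genes alone (adjusted p = 0.189, edgeR) and without female control replicate 2 (0.0773), female dual replicate 1 (0.112) or female dual replicate 2 (0.136). B930095G15Rik in Farp1 had 0.04 (adjusted p = 0.822, edgeR) and Gm42778 in Ttc28 had 0.05 (0.777).

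Among receptors of its family, Unc5d had the highest level per length of the 4 UNC5 genes compared, with a mean of 14.1 CPM per kb over 16 libraries. Unc5a was at 8.37, Unc5b at 3.65 and Unc5c at 3.23 CPM per kb. The netrin receptors Neo1 (47.0 CPM per kb) and Dcc (24.5 CPM per kb) were above all 4.

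Of the 8 other UNC5 and netrin receptors tested, 0 rose and 2 fell with dual exposure in females, where 9.34% of all genes rose and 5.64% fell. Their median log2 fold change was −0.16 against 0.02 over all genes. Unc5b fell by 0.47 (SE 0.12, adjusted p = 0.0116, edgeR), from 24.0 and 28.2 CPM in controls to 19.5 and 18.0 CPM. Neo1, a receptor for netrins and repulsive guidance molecules, fell by 0.22 (SE 0.07, adjusted p = 0.0334, edgeR), from 440 and 420 CPM to 361 and 376 CPM. Unc5a (−0.23 ± 0.11, adjusted p = 0.169), Unc5c (0.07 ± 0.16, adjusted p = 0.817) and Dcc (−0.10 ± 0.15, adjusted p = 0.712) did not pass. The Unc5b call was lost without female control replicate 2 (adjusted p = 0.0594, edgeR) or female dual replicate 2 (0.108), and that of Neo1 with counts scaled on protein-coding genes alone (0.148) or without female control replicate 1 (0.0893), female dual replicate 1 (0.144) or female dual replicate 2 (0.0965).

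Of 16 ligands and coreceptors, 0 rose and 3 fell in the same comparison (5.64% of all genes fell), with a median of −0.16. The repulsive guidance molecules Rgmb (−0.31 ± 0.06, adjusted p = 0.00355, edgeR) and Rgma (−0.32 ± 0.09, adjusted p = 0.019) and the netrin antagonist Draxin (−0.26 ± 0.07, adjusted p = 0.0272) were the 3. Rgmb was at 205 and 191 CPM in female control and at 160 and 159 CPM in female dual libraries, without overlap. Female control had the highest mean of the 8 groups for each of these genes. The Rgma mean was 153 CPM there, 123 in female dual, and from 115 (male paternal) to 135 (female maternal) in the remaining groups. Rgmb and Draxin had their lowest mean in female dual. With scaling on protein-coding genes alone the Rgma (adjusted p = 0.074, edgeR) and Draxin (0.109) calls were lost, and that of Rgmb was kept under all 9 alternatives run. Rgma also lost its call without female control replicate 2 (adjusted p = 0.124, edgeR), female dual replicate 1 (0.0859) or female dual replicate 2 (0.0819), and Draxin without female control replicate 1 (0.0803), female dual replicate 1 (0.0615) or female dual replicate 2 (0.171).

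The direct partners of Unc5d did not pass. Ntn1, encoding netrin-1, was at 82.5 and 68.8 CPM in female control and at 63.2 and 52.9 CPM in female dual libraries (−0.38 ± 0.15, adjusted p = 0.105, edgeR). Flrt2 differed by −0.10 ± 0.10 (adjusted p = 0.535, edgeR), Flrt3 by −0.11 ± 0.15 (0.665) and the glypican Gpc3 by 0.29 ± 0.31 (0.574). The level of Gpc3 in the 2 female control libraries was 6.88 and 19.5 CPM, a span that held both female dual values.

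**Figure D5:**
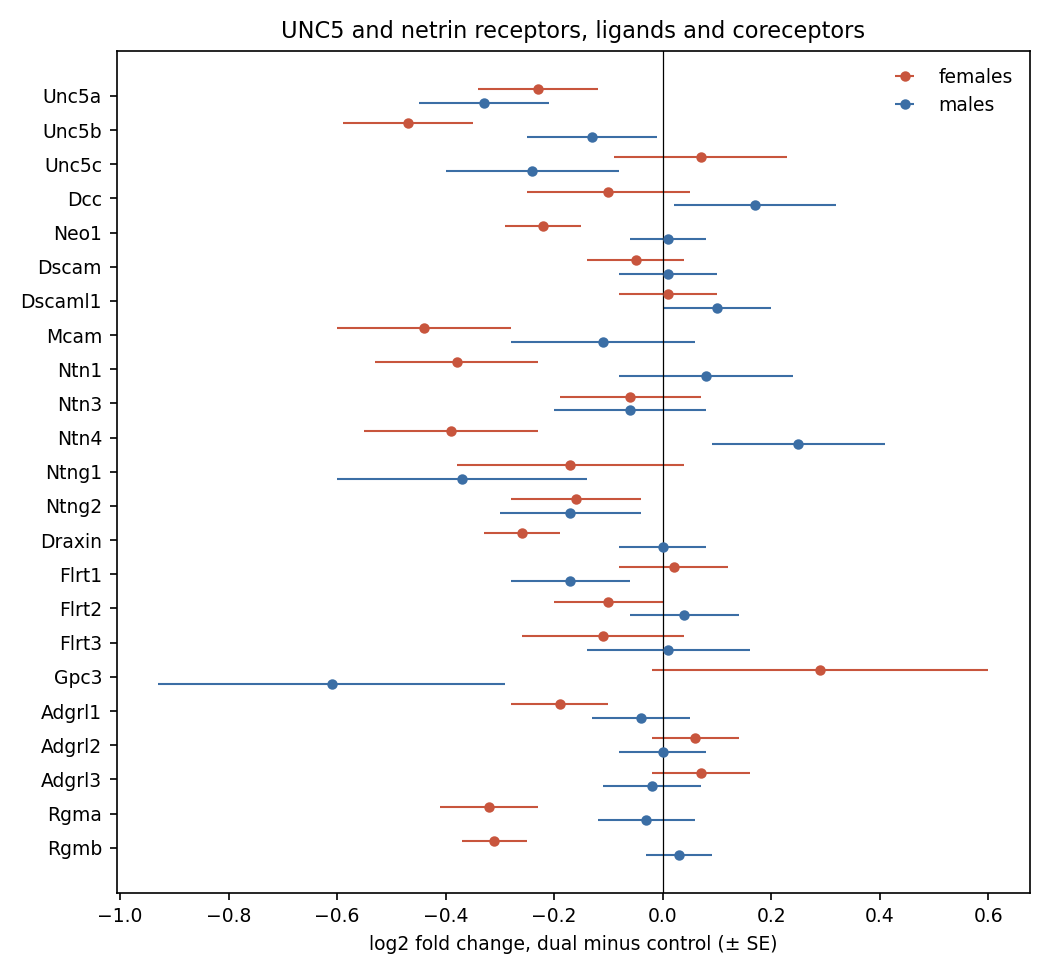
Log2 fold change of dual minus control ± SE (horizontal axis) for the tested UNC5 and netrin receptors, ligands and coreceptors other than Unc5d, in females (red) and males (blue), 2 libraries per group; Ntn5, with an SE of 1.44 in females, is left out. Unc5b, Neo1, Draxin, Rgma and Rgmb passed in females with lower values, and no gene passed in males.

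Of 18 intracellular partners of netrin and UNC5 receptors, 0 rose and 6 fell in dual females (Elmo2, Src, Maged1, Fyn, Pak1 and Pitpna), beside 5.64% of all genes that fell, with a median of −0.11. Elmo2, a regulator of Rac activation, had the lowest p among them (−0.31 ± 0.07, adjusted p = 0.00958, edgeR), and its call was lost without female dual replicate 1 (0.0655). Scaling on protein-coding genes alone ended the calls of the other 5 (adjusted p = 0.0777 for Src, 0.106 for Maged1, 0.129 for Fyn, 0.115 for Pak1 and 0.165 for Pitpna, edgeR). Without female dual replicate 2 these 5 calls were lost as well (0.125, 0.129, 0.0608, 0.1 and 0.0611), and without female dual replicate 1 so were Maged1 (0.0524), Fyn (0.135), Pak1 (0.109) and Pitpna (0.199). Leaving out female control replicate 2 ended Fyn (0.0554) and Pitpna (0.116), and female control replicate 1 ended Pak1 (0.12). Pitpna was also lost with no filter on low counts (0.0531). Female control had the highest mean of the 8 groups for all of these genes but Pitpna. Src had a mean of 166 CPM there, 138 in female dual and 132 in male control, and Maged1 had 684, 583 and 583 CPM. Female dual had the lowest mean for Elmo2, Fyn, Pak1 and Pitpna.

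The cells that Svet1 marks were described by other genes. Of 21 genes of the subventricular and multipolar stage, 0 passed in either direction in dual females, where 15.0% of all genes tested passed. Of the 21, 18 had a log2 fold change below 0 and 3 above, with a median of −0.16. Eomes, a transcription factor of intermediate progenitors, had −0.24 ± 0.21 (adjusted p = 0.475, edgeR). Of 15 upper-layer genes 0 rose and 1 fell, Plxnd1, a semaphorin receptor gene (−0.43 ± 0.10, adjusted p = 0.0105, edgeR), with a median of −0.05, and its call was lost without female dual replicate 2 (0.1). That count is near the 5.64% of all genes that fell. Cux2 (−0.05 ± 0.08, adjusted p = 0.712, edgeR) did not pass. No gene of either list passed with higher values in the female dual libraries, beside 9.34% of all genes.

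Of 20 long neuronal genes with long introns, 6 rose and 0 fell in dual females, beside 9.34% of all genes that rose, with a median of 0.26. The 6 were Magi2, a synaptic scaffold gene (0.33 ± 0.08, adjusted p = 0.00882, edgeR), Ptprd (0.38), Nrg3 (0.39), Nrg1 (0.38), Nrxn3 (0.29) and Pcdh9 (0.30). Magi2 was at 125 and 132 CPM in female control and at 156 and 167 CPM in female dual libraries. Leaving out female dual replicate 2 ended the calls of Magi2 (adjusted p = 0.0965, edgeR), Ptprd (0.1), Nrg3 (0.18), Nrxn3 (0.158) and Pcdh9 (0.225). Without female dual replicate 1, Nrg1 (0.145), Nrxn3 (0.0793) and Pcdh9 (0.0529) were lost, and without female control replicate 1, Nrg3 (0.0828), Ptprd (0.0574), Nrxn3 (0.084) and Pcdh9 (0.109).

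In the other exposure comparisons (paternal, maternal and dual over both sexes, and dual in males), 0 genes of these 6 lists passed. Of all genes, 3.36% passed with dual exposure over both sexes and 0.0% in each of the others, so the latter do not set the lists apart. Between the sexes, where 0.877% of all genes passed, 1 passed, the protocadherin gene Pcdh8 of the multipolar stage, with lower values in males (−0.20 ± 0.04, adjusted p = 0.00944, edgeR; 0.273 with the replicate number as a block). For the female minus male dual effect, where 3.5% of all genes passed, 1 passed, Rgmb, with −0.35 ± 0.09 (adjusted p = 0.043, edgeR). That call was lost under 10 of 13 alternatives, with adjusted p of 0.053 to 0.222.

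No marker list of another tissue or cell type had a summed level in the female dual libraries above the range of the female controls. The summed level of 6 meningeal markers was 146 to 166 CPM in female dual and 53.3 to 257 CPM in female control libraries. Those of blood and vessels (5 genes) came to 204 to 226 CPM in female dual and 267 to 344 CPM in female control libraries. For the 6 thalamic and diencephalic markers the values were 132 to 137 CPM and 146 to 184 CPM, and Foxb1 was at 0 in at least 1 of the 16 libraries. The 8 markers of ventral forebrain and interneurons summed to 633 to 708 CPM and 675 to 889 CPM, and the 4 microglial markers to 21.3 to 30.6 CPM and 35.6 to 39.2 CPM.

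The genes whose log2 CPM ran most like Svet1 over 16 libraries were Cdc37l1 and Amn1 (Pearson r = 0.95 each), Apex2, Cspp1 and Mir99ahg (r = 0.93 each). Gm45652 had r = 0.92, Gm9911 0.93 and Unc5d −0.01. Without the 2 female dual libraries (14 libraries) the genes most alike were Raph1 (r = 0.92), Cxxc4, Lrrc7 and Dock4 (0.89 each) and Adarb2 (0.88), with Gm9911 at 0.86, Gm45652 at 0.72 and Unc5d at 0.44. None of the 5 genes of the first list was in the second.

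For Unc5d the genes most alike over 16 libraries were Sema3c (r = 0.93), a secreted semaphorin, Strn (0.88), Rmi1 (0.87), Trim2 (0.86) and Zfp39 (0.84). Over 14 libraries they were Pter (0.94), Sema3c (0.93), Strn (0.88), Sod2 (0.88) and Cdc42ep3 (0.86). These coefficients describe the libraries, share their depth and composition, and are the highest of many.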

How the data were processed

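Raw counts per gene were deposited by the authors as 1 table for each library. Trimmomatic, STAR and featureCounts with genome build GRCm39 (mm39) are named, per the submitters' processing notes. Their versions, the annotation, the strand setting and the multi-mapping rule were not given in the sources used, so intronic and host reads may be divided differently than assumed here. GENCODE M21 on GRCm38, another build, gave names (52083 of 55359 IDs matched), classes, exon lengths, intron membership and sequences. RefSeq promoters of Svet1 and Unc5d were not used here, and some items are not reported here.

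In R 4.3.3, edgeR 4.0.16 kept 21543 genes (filterByExpr, minimum count 10, minimum total 15), scaled by TMM and fitted 8 group means (quasi-likelihood, two-sided, 8 residual degrees of freedom, Benjamini-Hochberg over all genes, threshold 0.05). The script was tested on simulated data. Genes, lists and tests were chosen with earlier results of these data known. All list members were counted; those that passed, direct Unc5d partners and up to 4 others were open to naming, while Eomes, Cux2, Unc5a, Unc5c and Dcc were named after their values were seen. Likeness lists hold the 5 highest correlations among named genes with a mean log2 CPM of at least 1.

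Replicate numbers were not treated as pairs in the main fit. Alternatives were DESeq2 1.42.0, its size factors, no filter, a replicate block, scaling on protein-coding genes, the compared groups alone, other forms of the ratio, pairs of at least 50 counts and leaving out each library.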

Additional observations from a re-analysis of the deposited data

Results flagged for a closer look

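For 3 genes flagged here a test of the difference between the dual effects of the sexes passed (edgeR, adjusted over all genes), as it did for 3.5% of all genes. Among the 1401 other intronic transcripts 306 (21.8%) passed it with a higher effect in females. Gm45652 differed by 2.13 (log2, female minus male; adjusted p = 0.0212, edgeR) and Gm9911 by 1.81 (adjusted p = 0.0423, edgeR), both higher in the female dual libraries. Neither is independent support for the Svet1 difference. Rgmb differed by −0.35 (adjusted p = 0.043, edgeR), with 205 and 191 CPM in female control against 160 and 159 in female dual libraries, and 180 and 174 CPM in male control against 180 and 182 in male dual libraries. The Rgmb call was lost with scaling on protein-coding genes alone (adjusted p = 0.102, edgeR) and under 9 other alternatives, the highest adjusted p being 0.222 without male control replicate 2. Sex and sequencing depth cannot be told apart in these libraries.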

How the results depend on the processing

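Depth limits Svet1, with 40 to 141 counts outside the female dual group, and 2 libraries per group limit every comparison. Replicate numbers were not treated as pairs in the main fit (same-numbered deviations correlated at −0.143 to 0.183 over 12 pairs of groups of 1 sex). The highest value was that of female control with female dual. With 2 libraries per group these correlations cannot decide whether the numbers mark a pairing. With the replicate block, 639 genes passed for dual exposure, 2996 in females and 48 between the sexes, against 724, 3229 and 189 without it. It ended the calls of Gm9911 (adjusted p = 0.0579, edgeR) and Rgmb (0.0619) on the female minus male dual effect and of Pcdh8 between the sexes (0.273), and the sex difference of Unc5d turned to −0.05 (0.897). Without the dual libraries the sex differences of Svet1 (0.21) and of the log2 ratio (0.18) also changed sign. The cause was not tested.

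Counts of genes that passed moved most. For dual exposure there were 335 with the compared groups alone, 1345 with no filter and 142 to 2056 on leaving out a library. In females, leaving out a library gave 1187 to 4032, and scaling on protein-coding genes gave 2315 higher and 458 lower against 2013 and 1216. In males (0) there were 1 by DESeq2, 71 with no filter and 0 to 13 on leaving out a library. For the female minus male dual effect (753) there were 1542 with no filter and 18 to 2854 on leaving out a library. Between the sexes there were 309 by DESeq2, 603 with no filter, 101 without the dual libraries and 109 to 1003 on leaving out a library. For maternal exposure (0) these were 2 by DESeq2, 79 with no filter and 0 to 115, and for paternal exposure (0) 22, 321 and 0 to 672. On leaving out a library, the male dual difference of Svet1 ran from −0.35 to 0.50 and that of the ratio from −0.49 to 0.41, and the female dual difference of Unc5d from −0.09 to 0.16. These 3 ranges cross 0, as does that of the maternal difference of Unc5d (−0.03 to 0.09), and the male ratio difference was 0.06 from summed counts. Of 321 alternative values of the main results, 270 moved by less than the SD between replicates, kept direction and side of the threshold where there was a test, or, for counts of genes, stayed within 1.5 times the main count. The female dual difference of Svet1 stayed between 1.83 and 2.47 on leaving out a library.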
